A study of Mus musculus with 2 samples.

Results

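The genes described here encode the coagulation and fibrinolysis factors, a set of 37 genes given by symbol and without the serpin inhibitors. Their messenger RNA was read in liver from 2 Affymetrix mouse whole-genome arrays, 1 for FLS mice and 1 for DS mice. Each array was hybridized with RNA pooled from the livers of 3 mice at 19 weeks of age. FLS (fatty liver Shionogi) mice served as a model of non-alcoholic steatohepatitis (NASH), and DS (dd Shionogi) mice as the reference strain. The study describes DS both as a model of simple steatosis and as free of liver abnormalities. Its own histology at this age found fatty liver in most DS mice, ballooned hepatocytes less often, and no steatohepatitis in them. FLS and DS are inbred strains bred by full-sib mating from different lines of a ddN colony. No treatment or transgene was used, both strains were fed standard pellets, and the livers were flushed with saline before removal. A gene took the value of its probe set, a group of short probes against a transcript, with the highest mean signal of the 2 arrays. It counted as measured if that signal exceeded 500 in at least 1 pool, and the ratio is the FLS signal over the DS signal. Of the 37 genes, 36 had a probe set and 24 were measured, among 18194 genes with a probe set and 5076 measured genes in all. With 1 pool per strain there is no replicate error and no test, so every ratio is a description of these 2 arrays. The yardstick of scatter was the pooled SD of the log2 ratio between measured probe sets of a gene, 0.22 over 1424 genes, or 1.17-fold, which is technical and does not measure variation between mice.

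Blood clots by a cascade of plasma proteases. The extrinsic pathway starts when tissue factor meets factor VII and the intrinsic pathway when factor XII, prekallikrein and kininogen assemble on a surface, and they meet in the common pathway, where factor X with factor V activates prothrombin and thrombin turns fibrinogen into fibrin. Anticoagulants such as protein C and protein S restrain the cascade, and plasmin, made from plasminogen, dissolves the clot. Hepatocytes secrete most of these proteins, whereas von Willebrand factor, thrombomodulin and the tissue plasminogen activator come mainly from endothelium. Several of the factors bind phospholipid only after their glutamates have been carboxylated by an enzyme that uses vitamin K.

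Most measured genes of the circulating factors had nearly the same signal in FLS and DS livers, with F12 and Kng1 somewhat higher in the FLS pool. A cell surface receptor and a growth factor-like ligand stood apart. F2r, the thrombin receptor, had a ratio of 2.05 and Gas6, the vitamin K-dependent ligand of the TAM receptor kinases, one of 1.76. They were the 2 of 24 measured genes that were at least 1.5-fold higher in the FLS pool, against 6.11% of all measured genes. F2r was the 1 gene at least 2-fold higher, against 2.29% of all measured genes. No measured member was at least 1.5-fold or at least 2-fold lower, against 4.49% and 1.77% of all measured genes. With 24 genes, counts of 2, 1 and 0 are close to these shares. Within 1.2-fold of equal signals lay 20 of the 24, against 63.6% of all measured genes, and the other 4 were F2r, Gas6, F12 and Kng1. The 24 genes had a median log2 ratio of 0.04, equal to the 0.04 of all measured genes. Their ratios ran from 0.906 for Pros1 to 2.05 for F2r, with 15 above 1 and 9 below. Of all 5076 measured genes 2861 lay above 1 and 2215 below, a similar split. The direction of the 9 members below 1 hung on the scaling, since after division by the ratio of Actb, the gene of beta-actin, all 24 lay above 1.

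**Figure D1:**
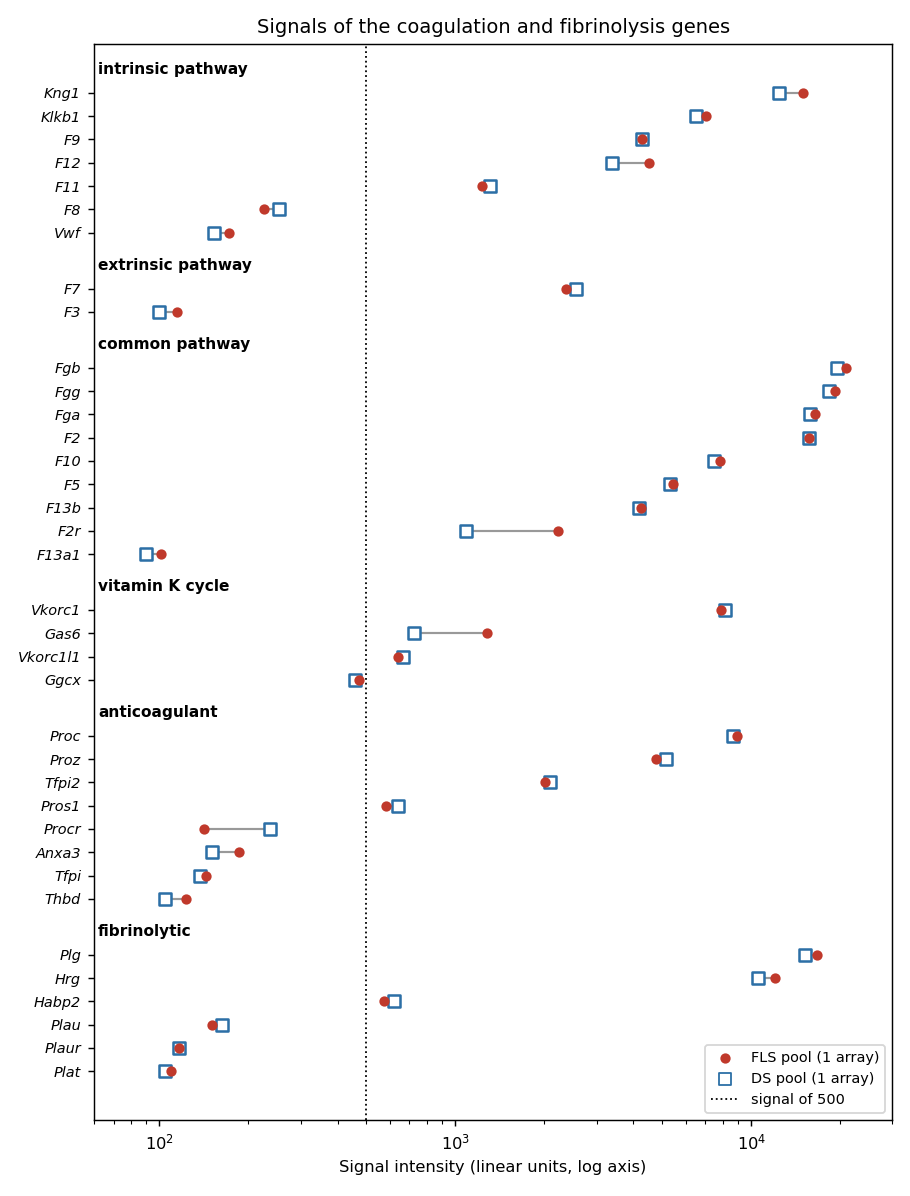
Signal intensity (log axis) of the 36 genes with a probe set for FLS (circles) and DS livers (open squares), 1 array each, ordered within each pathway by the DS signal. The circle and the square overlap or touch for most genes above the dotted line at 500, and lie apart for F2r (2227 and 1088) and Gas6 (1277 and 727).

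On these 2 arrays the share of genes within 1.2-fold was higher at higher signals, so the members were read beside genes of like signal. Of the 9 members with a mean signal above 8000, 8 lay within 1.2-fold, against 87.0% of 239 genes of that class. Between 2000 and 8000, 8 of 9 members did, against 67.9% of 1148 genes, and below 2000 it was 4 of 6 against 60.8% of 3689 genes. The median fold difference in either direction was 1.05 for the members and 1.12 for all genes in the middle class, and 1.05 and 1.06 in the highest class. Below 2000 the medians were 1.095 for the members and 1.153 for all genes. Thus in the highest class the members were spread about as widely as other genes of like signal. In the middle and lowest classes, with 9 and 6 members, their medians were closer to equality.

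**Figure D2:**
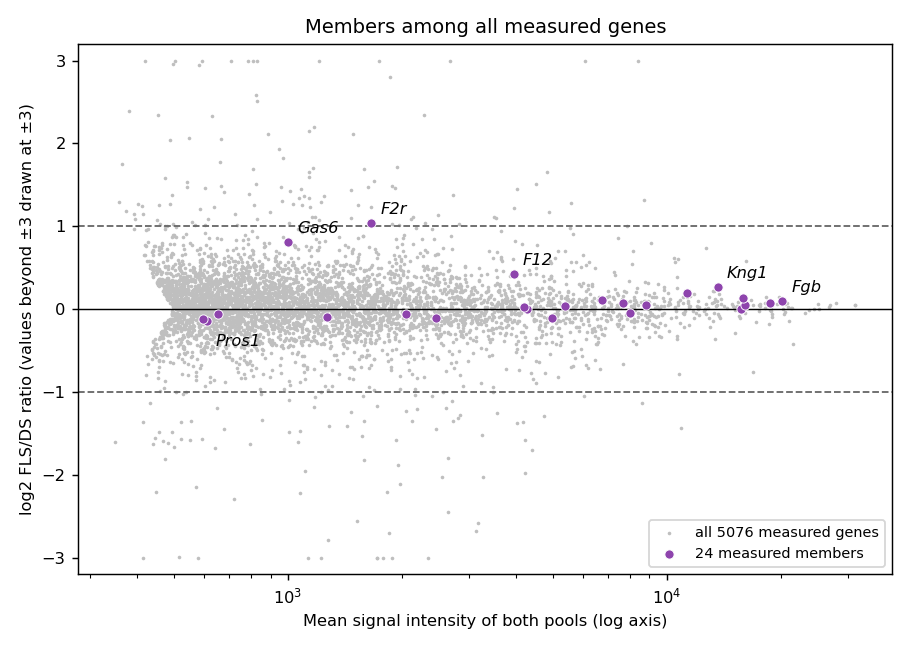
The log2 FLS/DS ratio against the mean signal of both pools (log axis) for the 24 measured members (large points) among all 5076 measured genes (grey), with dashed lines at 2-fold. The members lie in a narrow band around 0 at all signals, apart from F2r at 1.03 and Gas6 at 0.81, with F12 at 0.42 and Kng1 at 0.27 next.

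F2r encodes the receptor that thrombin cleaves to signal to cells, known in liver from endothelial and stellate cells. Its signal was 2227 in FLS and 1088 in DS livers. The other probe set read 1614 in FLS and 793 in DS livers, a ratio of 2.03. Both probe sets thus gave the same difference, and both were higher in the FLS pool. F2r ranked 105 from the highest ratio among the 5076 measured genes. The names of both probe sets end in _s_at, which marks probes shared by several transcripts, and no probe set of another kind was there to read the gene from. Over 4 other scalings of the arrays, with Actb read from its strongest probe set, the ratio of F2r lay between 2.02 and 2.36.

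Gas6 encodes a carboxylated relative of protein S that activates the receptor kinases Axl, Mertk and Tyro3, and in liver it is known from Kupffer and stellate cells. Its signal was 1277 in FLS and 727 in DS livers, and its ratio ranked 164 of 5076. The second Gas6 probe set read 166 in FLS and 171 in DS livers, near the array medians of 120.3 and 125.2, and did not show the difference. Over the 4 scalings the ratio of Gas6 lay between 1.71 and 2.02. None of its receptors was measured: Mertk read 458 in FLS and 460 in DS livers, Axl 168 and 174, and Tyro3 101.2 and 107.6.

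The promoters of these genes are shown next to those of the 3 fibrinogen genes, whose signals were almost equal, and of F12, the third highest ratio. The sequences are the 150 bases before the annotated start of each gene, read 5′ to 3′ on the gene's strand, from RefSeq for GRCm38.p6. They lie at chr13:95618467-95618616 on the minus strand for F2r, chr8:13494536-13494685 on the minus strand for Gas6, chr13:55426805-55426954 on the minus strand for F12, chr3:83026003-83026152 on the plus strand for Fga, chr3:83049864-83050013 on the minus strand for Fgb and chr3:83007574-83007723 on the plus strand for Fgg. Capitals mark the motifs that were searched on both strands, the GC box GGGCGG, the CCAAT box CCAAT, the TATA box TATAAA and the HNF1 half-site GTTAAT, so a match on the other strand reads as the reverse complement. The CCAAT and HNF1 motifs can share bases where they meet.
F2r: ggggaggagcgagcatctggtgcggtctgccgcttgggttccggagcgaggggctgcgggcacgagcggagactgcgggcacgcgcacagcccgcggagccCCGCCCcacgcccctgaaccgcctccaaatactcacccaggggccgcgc
Gas6: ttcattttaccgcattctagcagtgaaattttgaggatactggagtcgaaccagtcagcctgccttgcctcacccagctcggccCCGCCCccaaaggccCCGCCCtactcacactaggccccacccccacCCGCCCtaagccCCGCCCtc
F12: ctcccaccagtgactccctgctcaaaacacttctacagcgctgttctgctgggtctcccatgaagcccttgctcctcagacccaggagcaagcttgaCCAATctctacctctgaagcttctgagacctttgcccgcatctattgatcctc
Fga: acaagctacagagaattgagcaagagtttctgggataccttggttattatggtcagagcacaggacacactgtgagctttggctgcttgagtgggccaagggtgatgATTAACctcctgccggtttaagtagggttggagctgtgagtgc
Fgb: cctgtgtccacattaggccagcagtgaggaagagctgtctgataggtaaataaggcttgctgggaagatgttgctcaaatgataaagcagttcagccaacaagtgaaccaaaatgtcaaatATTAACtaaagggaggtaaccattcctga
Fgg: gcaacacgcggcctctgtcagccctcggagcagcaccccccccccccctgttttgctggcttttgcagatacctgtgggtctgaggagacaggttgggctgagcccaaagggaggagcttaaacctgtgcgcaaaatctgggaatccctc

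The F2r stretch held 1 GC box and the Gas6 stretch 4. Fga and Fgb each held 1 HNF1 half-site, F12 held 1 CCAAT box, and none of the 4 motifs was found in the Fgg stretch. HNF1 is a transcription factor of hepatocytes, and the GC box is common in promoters that many cell types use. Over the whole 250 bases before the start, the promoter of F2r had a GC content of 70.8% with 24 CpG pairs and that of Gas6 54.8% with 10. The promoters of Fga, Fgb and Fgg had 49.2%, 44.8% and 56.8% with 2, 3 and 4 CpG pairs. A promoter sequence was held for 21 of the 24 measured genes, 23 promoters in all. An HNF1 half-site was found in 7 of the 23, against 6.43% of all 32851 promoters, and the 7 belong to the 6 genes F13b, Fga, Fgb, Proz, Tfpi2 and Habp2. GC boxes were found in 7 of the 23 against 32.7% of all promoters, CCAAT boxes in 8 against 33.9% and TATA boxes in 1 against 12.4%. These are matches of letters in a window, in the reference strain rather than in FLS or DS mice.

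Because whole liver was pooled, more cells of a type and more RNA per cell cannot be told apart for F2r and Gas6, nor can fewer cells and less RNA. Markers of hepatic stellate cells moved in the same direction. Of 15 markers 9 were measured, with a median log2 ratio of 0.46. Of the 9, 8 had a ratio above 1, against 2861 of all 5076 measured genes. At least 2-fold higher were 3 (Col3a1, Vim and Col1a2, with 2.78, 2.39 and 2.00), against 2.29% of all measured genes. The markers were chosen with their values in view, and the study lists Col3a1 and Col1a2 among genes picked for their difference on these arrays. The summed signal of the 9 markers was 17845 in FLS and 12645 in DS livers. The measured marker with a ratio below 1 was Acta2 (486 and 529, FLS and DS). The 6 markers below 500 in both pools were divided. Pdgfrb (361 in FLS and 179 in DS livers), Pdgfra (247 and 147) and Col1a1 (128 and 85.7) had ratios above 1, whereas Lrat (248 and 281), Des (195 and 197) and Ngfr (222 and 251) had ratios below 1. Most measured markers of Kupffer cells and macrophages had lower signals in the FLS pool. Of 14 markers 9 were measured, and their signals summed to 7163 in FLS and 8450 in DS livers. Of the 9, 7 had a ratio below 1, against 2215 of all 5076 measured genes, and 2 were at least 1.5-fold lower, against 4.49%. The lowest was Vsig4 (408 in FLS and 736 in DS livers), while Csf1r was near equality at 0.993. The 2 above 1 were Lyz2 (970 and 677) and C1qa (1051 and 1011). Below the limit, Cd68 and Ccr2 had ratios above 1, and Timd4, Marco and Itgam below 1. Of 14 sinusoidal endothelial markers 6 were measured, with ratios from 0.865 to 1.35 and sums of 7905 in FLS and 7701 in DS livers. Below 500 in both pools, Tek (407 in FLS and 222 in DS livers), Stab1, Lyve1 and Cdh5 had ratios above 1. Pecam1, Tie1, Gpr182 and Oit3, also below 500, had ratios below 1. The part of these cells in the F2r and Gas6 differences was not tested.

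**Figure D3:**
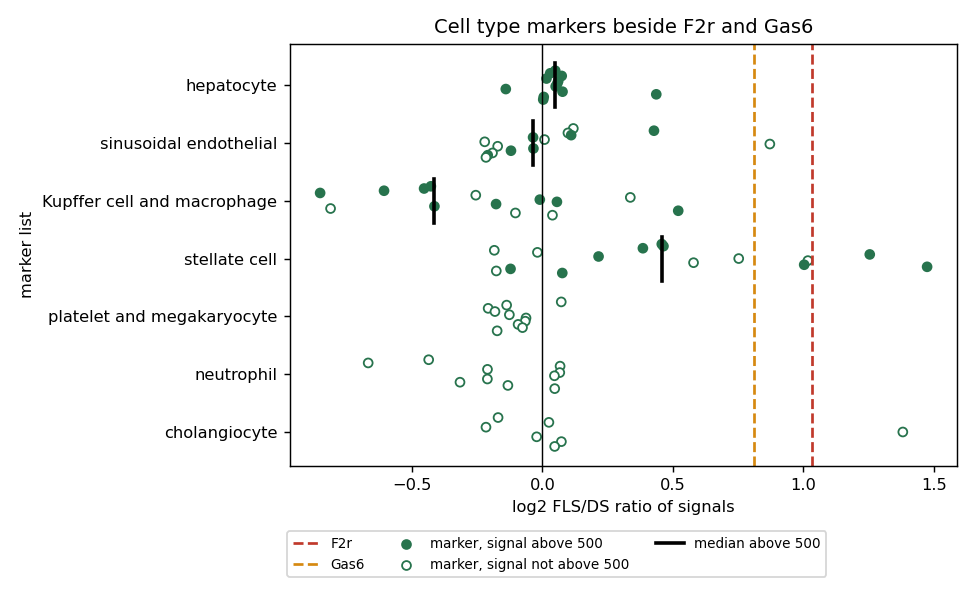
The log2 FLS/DS ratio of each marker by cell type list, filled where either pool read above 500, with bars at the median of the filled markers and dashed lines at F2r and Gas6. Stellate cell markers reach the values of F2r (1.03) and Gas6 (0.81) with a median of 0.46, Kupffer cell and macrophage markers have a median of -0.41, and hepatocyte markers gather at 0.05.

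Hepatocyte markers, the defining genes of the main source of clotting factors, were measured for 12 of 14 genes. They had ratios from 0.907 to 1.35, a median log2 ratio of 0.05 and summed signals of 242280 in the FLS and 236710 in the DS pool. None of 10 platelet and megakaryocyte markers and none of 10 neutrophil markers with a probe set exceeded 500 in either pool. The platelet marker Pf4 read 173 in FLS and 165 in DS livers.

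In the intrinsic pathway, 5 of 7 genes were measured, with a median log2 ratio of 0.11. F12, which encodes factor XII, the protease that starts contact activation, read 4518 in FLS and 3371 in DS livers. Its ratio of 1.34 ranked 601 of 5076 and rested on a single probe set. Kng1, the gene of the kininogen that carries prekallikrein and releases bradykinin, read 14908 in FLS and 12387 in DS livers, a log2 ratio of 0.27. Its second probe set read 10524 and 6855, a log2 ratio of 0.62, so the size of its difference hung on the probe set while the direction did not. Klkb1, which encodes prekallikrein, read 7031 in FLS and 6493 in DS livers. The 5 measured genes of the pathway, F12, Kng1, Klkb1, F11 and F9, thus had log2 ratios of 0.42, 0.27, 0.11, -0.095 and -0.00094.

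Of the remaining intrinsic factors, the measured ones, F11 and F9, were closer to equality. F11, the gene of factor XI and the neighbour of Klkb1 on chromosome 8, read 1229 in FLS and 1312 in DS livers, a ratio of 0.936. F9, whose product is lost in haemophilia B, read 4285 in FLS and 4288 in DS livers. F8, the gene of its cofactor, read 226 and 254, and Vwf, the gene of von Willebrand factor, which carries factor VIII in plasma, read 172 and 153. F8 and Vwf thus stayed below the limit in both pools.

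In the extrinsic pathway, F7 was measured and F3 was not. F7, the gene of factor VII, read 2369 in FLS and 2552 in DS livers, a ratio of 0.928. F3, which encodes tissue factor, read 114.8 in FLS and 99.4 in DS livers, near the array medians.

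In the common pathway, 8 of 9 genes were measured, with a median log2 ratio of 0.06. The genes of the 3 fibrinogen chains lie side by side on chromosome 3 and had ratios from 1.04 to 1.07. Fga read 16361 in FLS and 15789 in DS livers, Fgb 20838 and 19464, and Fgg 19215 and 18262. All 3 differed by less than the scatter between probe sets, on probe sets of high signal. F2, which encodes prothrombin, read 15682 in FLS and 15652 in DS livers. F10, the gene of factor X, read 7828 and 7461 on its strongest probe set, and its 3 probe sets had ratios of 1.05, 1.06 and 0.945. F5, the gene of the cofactor of factor X, read 5444 and 5306, and the ratio was 1.03 on each of its 2 probe sets. Factor XIII crosslinks fibrin. The gene of its carrier subunit, F13b, read 4252 in FLS and 4170 in DS livers, while that of its catalytic subunit, F13a1, known from macrophages and platelets, read 101.5 and 90.4 and was not measured.

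**Figure D4:**
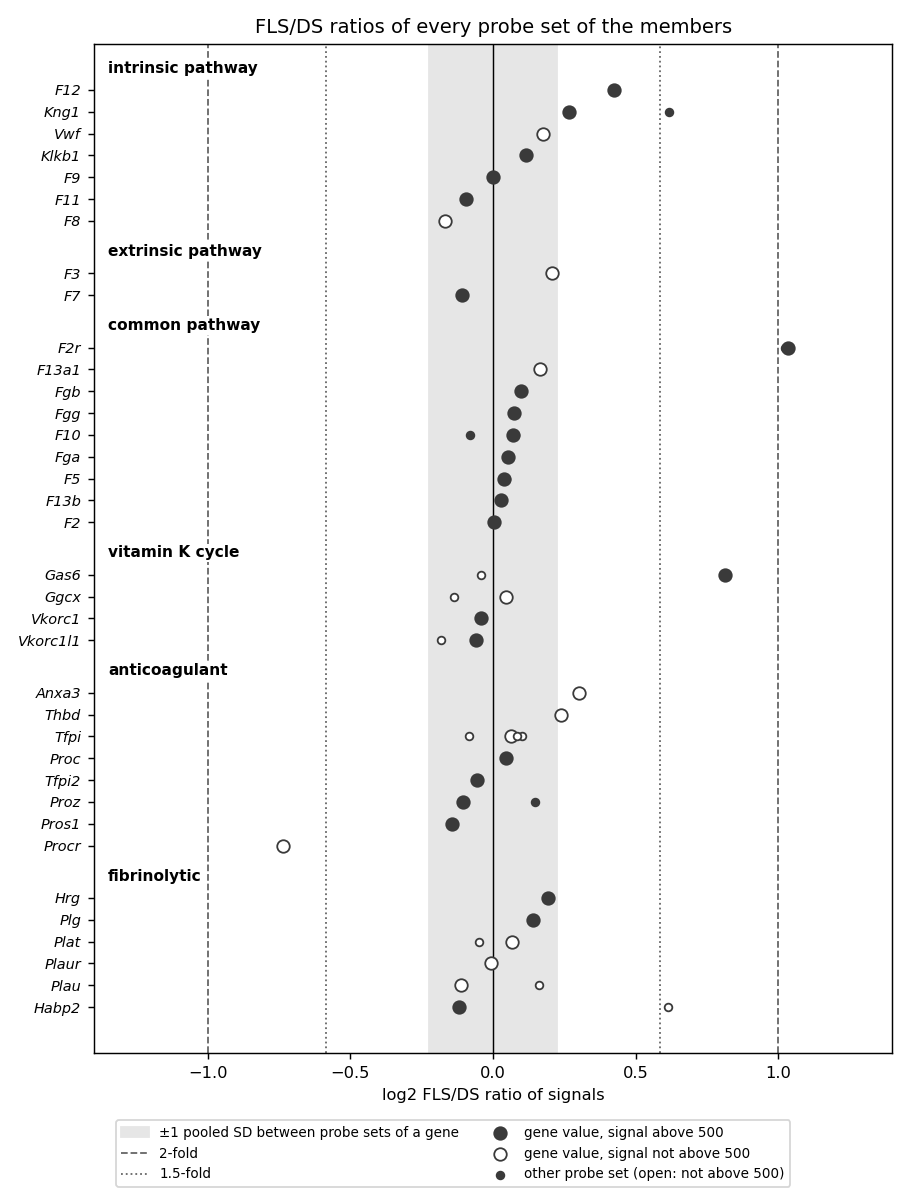
The log2 FLS/DS ratio of all 51 probe sets of the members by pathway, with large points for the gene value, small points for further probe sets and filled points for a signal above 500, the grey band at 1 pooled SD (0.22) on either side of 0, dotted lines at 1.5-fold and dashed lines at 2-fold. Both F2r probe sets lie past 2-fold and cover each other, Gas6 and Kng1 each have 1 filled probe set past 1.5-fold, and most other filled points lie in the band.

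The enzymes of the vitamin K cycle differed by less than the scatter between probe sets, while Gas6, counted with them here, is described above. Vkorc1, the gene of the epoxide reductase that warfarin blocks, read 7902 in FLS and 8136 in DS livers, a ratio of 0.971. Its paralogue Vkorc1l1 read 639 and 666, a ratio of 0.959. Ggcx, which encodes the gamma-glutamyl carboxylase itself, read 472 in FLS and 457 in DS livers and fell just short of the limit, while Habp2, at 572 and 622, was the gene just above it. The substrates of the carboxylase among the members, picked out as a group after the values were seen, are F2, F7, F9, F10, Proc, Pros1, Proz and Gas6. Of these 8 genes, Gas6 had the highest ratio, 1.76, and the other 7 had ratios between 0.906 and 1.05.

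Among the anticoagulant genes, 4 of 8 were measured, with a median log2 ratio of -0.08. Proc, the gene of protein C, read 8967 in FLS and 8685 in DS livers, a ratio of 1.03. Pros1, the gene of its cofactor protein S, read 581 and 641, and its ratio of 0.906 was the lowest among the measured members. Proz, the gene of the cofactor with which a serpin inhibits factor X, read 4780 and 5148. Its second probe set read 778 and 702, so its ratios were 0.928 and 1.11, on either side of 1. Proz, F10 and F7 are neighbours on chromosome 8. Tfpi2, a Kunitz-type inhibitor gene, read 2014 in FLS and 2094 in DS livers.

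The anticoagulants of the vessel wall were not measured. Procr, the gene of the endothelial protein C receptor, read 142 in FLS and 236 in DS livers. Its log2 ratio of -0.74 was the lowest of all members with a probe set, but the FLS signal was near the array median, so its size is not fixed. Thbd, which encodes thrombomodulin, read 123 and 104.5, and the 4 probe sets of Tfpi, the tissue factor pathway inhibitor, had ratios from 0.944 to 1.07 at signals near the medians. Anxa3, an annexin gene that binds phospholipid, read 186 in FLS and 151 in DS livers.

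Of the fibrinolytic genes, 3 of 7 were measured, with a median log2 ratio of 0.14. Plg, which encodes plasminogen, read 16698 in FLS and 15168 in DS livers, a ratio of 1.10. Hrg, the gene of the histidine-rich glycoprotein that binds plasminogen and heparin, read 12022 and 10533, a ratio of 1.14. Habp2, the gene of a plasma protease that activates factor VII and pro-urokinase, had a ratio of 0.921 on the probe set above 500 and of 1.53 on a second probe set at 293 and 192. The direction for Habp2 therefore hung on the probe set.

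The activators of plasminogen were near the array medians. Plat, the gene of the tissue activator, read 109.1 in FLS and 104.2 in DS livers, Plau, the gene of urokinase, 150.2 and 162, and Plaur, the gene of the urokinase receptor, 116 and 117. No probe set was assigned to Cpb2 in the annotation used here. The 12 members with a probe set that were not measured read between 101.5 and 472 in FLS livers and between 90.4 and 457 in DS livers.

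Other genes of haemostasis were read from lists drawn up beside the members. Of 8 serpins of haemostasis, 5 were measured, with ratios from 1.01 to 1.26. None was at least 1.5-fold higher or lower, against 6.11% and 4.49% of all measured genes. Serpinf2, the gene of antiplasmin, had 9744 in FLS and 7761 in DS livers, Serping1, the gene of the C1 inhibitor, a ratio of 1.10, Serpinc1, the gene of antithrombin, 1.04, and Serpina10, the gene of the inhibitor that works with protein Z, 1.03. Of 30 further genes, 11 were measured. Of these, 3 were 1.5-fold or more higher and 1 was 1.5-fold or more lower, against 6.11% and 4.49% of all measured genes. Anxa2 and S100a10, whose products form a cell surface receptor for plasminogen, had ratios of 1.52 and 1.53. Anxa2 read 908 in FLS and 599 in DS livers, and its second probe set above 500 had a ratio of 1.29. S100a10 read 4213 and 2754, and a second probe set gave 1.51. Anxa5, an annexin that covers the phospholipid on which clotting factors assemble, read 765 in FLS and 1596 in DS livers, a ratio of 0.479. Asgr2, a subunit of the receptor that clears desialylated glycoproteins, read 1403 and 825, a ratio of 1.70, while the other subunit, Asgr1, picked out after the values were seen, had 0.867. Lman1, picked out in the same way, encodes the receptor that carries factors V and VIII out of the endoplasmic reticulum. It read 2677 in FLS and 3480 in DS livers, a ratio of 0.769, and over its 5 probe sets the ratio ran from 0.579 to 1.06. Mcfd2, the gene of its partner, had a ratio of 0.950.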

How the data were processed

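Liver RNA of 3 mice was pooled for each strain, FLS and DS, and hybridized to 1 array per pool. The authors summarized the probe sets with the MBEI (PM-only) algorithm and normalized them, and the deposited values are signal intensities on the linear scale of 45101 probe sets. The submitters' processing notes name affy, and the scaling between arrays was not given in the sources used here. No depth applies to arrays, and the precision is limited by their number, 2.

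In the platform annotation 34958 probe sets had 1 gene symbol, 932 had several and 9211 had none, and only the first were used. Symbols were updated through gene numbers in a RefSeq table of GRCm38.p6 for 34754 probe sets. The member genes, their 6 groups and the 10 other lists were chosen with earlier results of these data known. All 24 measured members were named, with members not measured given by their signals, and up to 4 measured genes with the largest absolute log2 ratio of each further list of haemostasis genes or regulators. Cell type markers and genes named beyond this, such as partners, were chosen with their values in view, and so were the motifs and the promoters shown.

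The alternatives were quantile normalization, centring on the median, an offset of 50, loess over signal (fraction 0.4), division by the signal ratio of Actb, the median over probe sets, no limit on signal or one of 200 or 1000, omission of probe sets ending in _x_at or _s_at, and a signal above 500 in both pools. A log2 ratio or median counted as moved from a shift of 0.22, and a count beyond 1.5 times. Scripts were tested on simulated data and ran in Python 3.11.15 with statsmodels 0.14.6, pandas 2.3.3, numpy 2.4.6 and, for plots, matplotlib 3.10.9.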

Additional observations from a re-analysis of the deposited data

How the results depend on the processing

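Division by the Actb ratio of 0.867 shifts every log2 ratio upward by 0.21, puts all 24 measured members above 1 (15 are above 1 without it), brings F12 to a log2 ratio of 0.63 and so makes 3 members at least 1.5-fold higher, brings Gas6 to a ratio of 2.02 and so makes 2 at least 2-fold higher, and leaves 14 members within 1.2-fold against 46.2% of all measured genes. Under the other 3 scalings 20 or 21 members lay within 1.2-fold, against 62.2% to 64.1% of all measured genes. Without probe sets ending in _x_at or _s_at, F2r and Hrg have no value and Habp2 is no longer measured, which leaves 21 measured members, of which 1 was 1.5-fold or more higher and 0 were 2-fold or more higher. With the median over probe sets, the log2 ratio of Gas6 was 0.38 and the number at least 1.5-fold higher was 1. The log2 ratio of Habp2 was 0.25 with the median and 0.61 without those probe sets. A signal limit of 200, or none, adds Procr as 1 gene at least 1.5-fold lower, and a limit of 1000 leaves 2 genes of the vitamin K cycle with a median log2 ratio of 0.39. Of 287 recomputed values 277 stayed within the limits given with the methods, but part of these could not leave them. The Actb shift of 0.21, read from its strongest probe set, is below the limit of 0.22. A gene with 1 probe set keeps its value under the median over probe sets. Other Actb probe sets had ratios of 0.869, 0.875, 0.682 and 0.671. The log2 ratios of the lowest of these were -0.55 and -0.57. Division by either would shift every value past the limit, and was not run. The sign of a log2 ratio or median changed in 22 of the 287 values, 12 under division by Actb (9 genes and the medians of the extrinsic, vitamin K and anticoagulant groups) and 10 elsewhere (F9, F2, Proz, Habp2 and the extrinsic and vitamin K medians), all for values less than 1.5-fold from equality as reported. The Actb shift follows from dividing all genes by 1 number. Elsewhere, the sign changes of F9 and F2 came with quantile normalization or centring on the median, and the other changes from fewer or other probe sets and genes. No paired analysis was possible because each strain has 1 pool. Ratios of signals near the array medians are not fixed in size.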

Other observations

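Transcription factors and receptors that control liver genes were read from a list of their own. Of 12 genes in this list 10 were measured, none was at least 1.5-fold changed, and 3 lay within 1.2-fold. Of all measured genes 6.11% were at least 1.5-fold higher, 4.49% at least 1.5-fold lower and 63.6% within 1.2-fold. Foxa2, a pioneer factor of liver genes, read 521 in FLS and 752 in DS livers, a ratio of 0.693. Foxa1 read 769 and 1033, a ratio of 0.744. Cebpb, an acute phase regulator, read 3415 and 4561, a ratio of 0.749, and its second probe set gave 0.662. Cebpa, a factor of the differentiated hepatocyte, read 5628 and 4279, a ratio of 1.32. Onecut1, picked out after the values were seen, read 122 in FLS and 377 in DS livers, below the limit. Hnf4a, picked out in the same way, which controls many clotting factor genes, had a ratio of 1.12.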
